A study of Homo sapiens with 24 samples.

Results

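The APOBEC3 genes encode a family of cytidine deaminases, enzymes that turn cytosine into uracil, chiefly in single-stranded DNA. The members are APOBEC3A, APOBEC3B, APOBEC3C, APOBEC3D, APOBEC3F, APOBEC3G and APOBEC3H, and all 7 were found by symbol among the 37416 genes counted. Their levels were described in RNA-seq libraries from the human lines BT549, HCC1806, MDAMB231 and MDAMB468, 4 lines of triple-negative breast cancer, a class defined by the absence of hormone receptors and of amplified HER2. A lentivirus carried a short hairpin RNA to each line, aimed either at ADAR1 (shADAR1) or at no target (shNT). All groups were exposed to virus for 24 h and then kept for 72 h in puromycin (2 µg/ml). Each of the 8 groups had 3 biological replicates, giving 24 libraries of total RNA depleted of ribosomal RNA. The hairpin sequences, and whether more than 1 hairpin against ADAR1 was used, are not given in the labels. The labels do not say what separated the replicates, so p-values measure the spread between these samples.

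APOBEC3 proteins restrict retroviruses and retrotransposons by deaminating the DNA made during reverse transcription. APOBEC3A and APOBEC3B can also act on the genome of the cell, and their activity has been linked to clustered cytosine mutations in breast tumours, where APOBEC3B is the member most often found raised. Uracil left by these enzymes is removed by uracil-DNA glycosylases and the resulting gap is repaired or copied with errors. ADAR1, the target of the knockdown, is a deaminase of another kind: it turns adenosine into inosine in double-stranded RNA and restrains the sensing of that RNA by interferon-inducing receptors. Several APOBEC3 genes are induced by interferon, which makes the family a readout of interest when ADAR1 is lowered.

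The 7 genes lie side by side on the plus strand of chromosome 22, from 38952741 to 39104067 in the coordinates of the files, a span of 151 kb. The files do not name their genome build, but 5 of the 7 members have the same start and end as in GENCODE 29 on GRCh38. The models of APOBEC3D and APOBEC3G start earlier in the files (39014363 and 39040961) than in that release (39021113 and 39077005). The counted gene models also overlap. APOBEC3A and APOBEC3B share 348 exonic bases (38992431 to 38992778), which are 14.8% of the APOBEC3A model and 18.4% of the APOBEC3B model. APOBEC3C and APOBEC3D share 17 exonic bases, as do APOBEC3F and APOBEC3G.

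**Figure D1:**
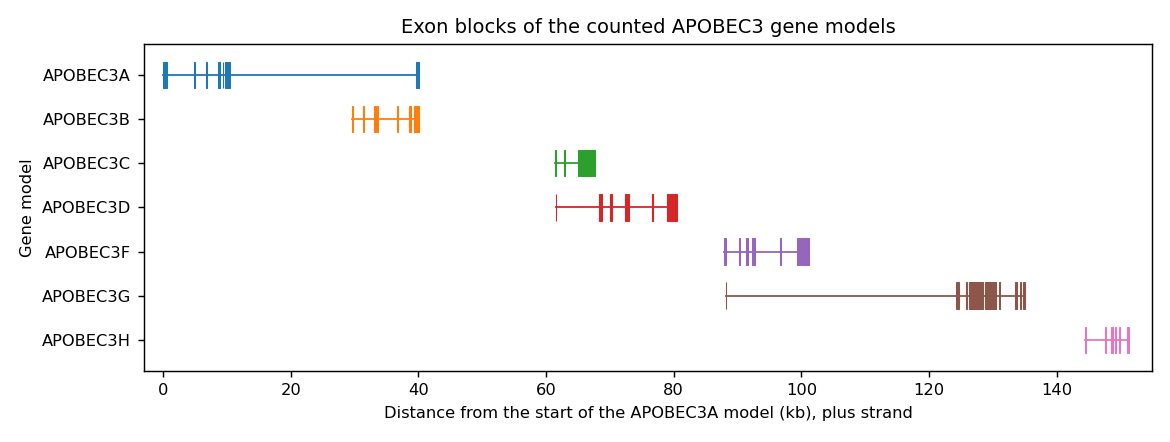
Exon blocks (boxes) and extent (lines) of the 7 counted gene models, against distance from the start of the APOBEC3A model in kb. The last block of APOBEC3A lies on the end of APOBEC3B (348 shared exonic bases), and first blocks of APOBEC3D and APOBEC3G lie on APOBEC3C and APOBEC3F (17 shared exonic bases each).

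Sequence is shared among the genes as well as position. The catalytic centre of each enzyme holds a zinc ion bound by a histidine and a pair of cysteines, and the first of those cysteines follows a proline. The coding stretch of 10 codons around that proline and cysteine was read from 1 GENCODE 29 transcript of each gene. The transcripts of APOBEC3A, APOBEC3C and APOBEC3H held 1 such motif and those of APOBEC3B, APOBEC3D, APOBEC3F and APOBEC3G held 2. The stretches that matched between genes are printed first, followed by those of APOBEC3G and APOBEC3H for contrast, because identical runs are where reads cannot be assigned to 1 member by sequence. All are coding exon sequence on the plus strand of GRCh38, written 5′ to 3′, with the proline and cysteine codons in capitals.

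APOBEC3A, exon 3 of 5, chr22:38961501-38961530: tcctggagcCCCTGCttctcctggggctgt
APOBEC3B second motif, exon 6 of 8, chr22:38991446-38991475: tcctggagcCCCTGCttctcctggggctgt
APOBEC3B first motif, exon 3 of 8, chr22:38985914-38985943: tcctggaccCCCTGCccggactgtgtggcg
APOBEC3F first motif, exon 3 of 7, chr22:39045043-39045072: tcctggaccCCCTGCccggactgtgtggcg
APOBEC3D second motif, exon 6 of 7, chr22:39031796-39031825: tcttggagcCCTTGCccagagtgtgcaggg
APOBEC3F second motif, exon 6 of 7, chr22:39052176-39052205: tcttggagcCCTTGCccagagtgtgcaggg
APOBEC3C, exon 3 of 4, chr22:39017868-39017897: tcttggagcCCTTGCccagactgtgcaggg
APOBEC3G second motif, exon 6 of 8, chr22:39086393-39086422: tcctggagcCCCTGCttcagctgtgcccag
APOBEC3H, exon 3 of 5, chr22:39101327-39101356: acgtggagcCCCTGCtcctcctgtgcctgg

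The APOBEC3A stretch and the second APOBEC3B stretch differed at 0 of 30 bases. The same held for the first stretches of APOBEC3B and APOBEC3F and for the second stretches of APOBEC3D and APOBEC3F, and APOBEC3C differed from the last pair at 1 base. Over whole transcripts, 50.5% of the windows of 50 bases in APOBEC3B-201 also occurred in a transcript of another member, most often APOBEC3A. The share was 24.0% for APOBEC3F, 22.7% for APOBEC3A, 19.1% for APOBEC3G, 15.2% for APOBEC3D, 1.16% for APOBEC3C and 0% for APOBEC3H. With windows of 100 bases it was 36.5% for APOBEC3B, 13.5% for APOBEC3F, 13.0% for APOBEC3A, 11.3% for APOBEC3G, 9.18% for APOBEC3D and 0% for APOBEC3C and APOBEC3H. Windows were sought in every transcript of the other members. Bases where models overlap, such as the 348 of APOBEC3A and APOBEC3B, can therefore be part of these shares. How reads that fit several members were counted is not given in the sources used here, so values of APOBEC3A, APOBEC3B, APOBEC3D, APOBEC3F and APOBEC3G are uncertain to that extent. The strand setting is not given either, so antisense reads could not be told apart.

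Total counts ran from 10370645 to 97218217 per library, with a median of 51996976. ADAR fell in every line, by 1.94, 1.59, 2.19 and 1.43 on the log2 scale in BT549, HCC1806, MDAMB231 and MDAMB468, with edgeR adjusted p between 6.8e-09 and 3.2e-05. With the 6 libraries of HCC1806 fitted alone, its change of -1.60 had an adjusted p of 0.213. Of 7 epithelial markers, 7 were at a CPM (reads scaled to the library total) of 1 or more in HCC1806 and MDAMB468, 4 in MDAMB231 and 0 in BT549, where their summed level was 0.724 to 1.54 CPM. Vimentin averaged 2309 CPM in BT549 and 4305 CPM in MDAMB231 with shNT, against 7.96 and 8.15 CPM in HCC1806 and MDAMB468. Of the other mesenchymal markers listed, ZEB1 and FN1 also averaged higher with shNT in BT549 and MDAMB231 than in HCC1806 and MDAMB468. CDH2 went the other way in MDAMB231, at 0.254 CPM with shNT against 241 in BT549, 29.98 in HCC1806 and 1.27 in MDAMB468. The oestrogen receptor gene ESR1 was at 19.0 ± 1.79 CPM (SD, n = 3) in HCC1806 with shNT, although the lines are labelled triple-negative. It averaged 6.85 CPM in MDAMB468, 0.462 in MDAMB231 and 0.0118 in BT549. The progesterone receptor gene PGR averaged at most 0.737 CPM (MDAMB231) with shNT, and the HER2 gene ERBB2 75.9 (MDAMB468) to 100 CPM (HCC1806). A list of 8 leukocyte markers, which would show blood cells rich in APOBEC3 transcripts, summed to at most 5.87 CPM in any library, and 1 of the 8 was at 0 throughout.

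Levels are given as CPM, with library totals of reads assigned to genes scaled by the trimmed mean of M-values (TMM). Levels of different genes are compared only after division by the length of the gene model in kilobases. With shNT, BT549 expressed APOBEC3B and little else: APOBEC3B made up 94.3 ± 1.35% (SD, n = 3) of the summed length-scaled level of the family, and APOBEC3C, the next member, 2.37%. MDAMB468 also held mostly APOBEC3B (58.9 ± 3.24%), with APOBEC3C at 19.4 ± 1.53% and APOBEC3F at 19.3 ± 1.56%. HCC1806 held mostly APOBEC3C (63.3 ± 1.67%), with APOBEC3B at 14.6 ± 1.31%, APOBEC3F at 10.3 ± 1.85% and APOBEC3G at 9.18 ± 1.56%. MDAMB231 was split between APOBEC3C (45.3 ± 3.29%) and APOBEC3B (37.6 ± 3.53%), and had the largest share of APOBEC3D of the 4 lines (8.32 ± 0.489%). The APOBEC3G model is 5454 bases long in the files, against 1834 bases for transcript APOBEC3G-201, so its length-scaled level depends on that model. With the transcript length its share in HCC1806 would be larger, and its place in the order of members there would differ. The APOBEC3A model is also longer than transcript APOBEC3A-201 (2358 against 1444 bases).

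**Figure D2:**
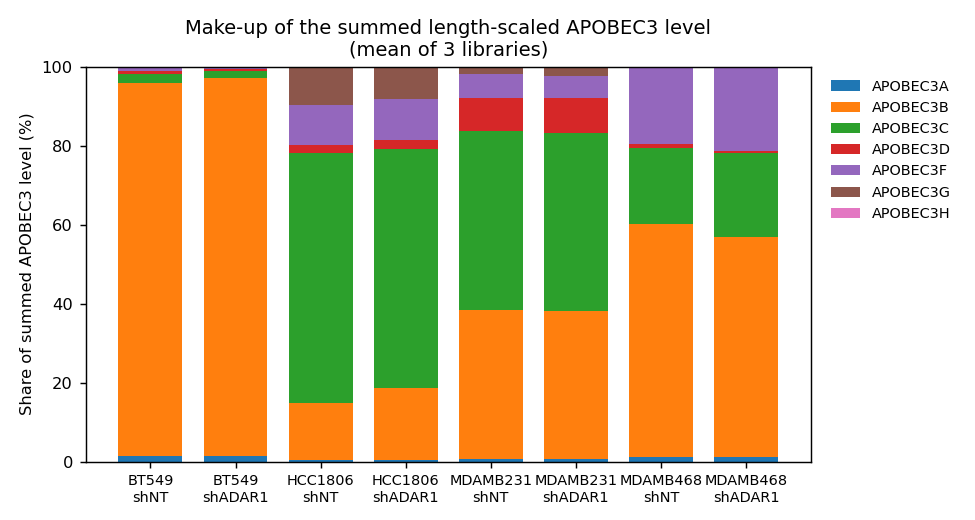
Share of the summed length-scaled APOBEC3 level (percent) taken by each member, as the mean of 3 libraries, for both arms of each line. APOBEC3B filled 94.3% of the BT549 bar with shNT and 14.6% of the HCC1806 bar, where APOBEC3C filled 63.3%.

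The total of the family also differed between lines. The counts of the 7 genes were summed without division by length, a sum chosen after seeing the data. On that sum, shNT libraries held 22.9 ± 1.17 CPM in BT549, 54.1 ± 5.87 in MDAMB468, 67.5 ± 18.1 in HCC1806 and 71.2 ± 7.43 in MDAMB231 (SD, n = 3 each). The highest BT549 library (24.0 CPM) lay under the lowest of any other line (47.9 CPM). BT549 was lower than HCC1806 by a log2 difference of -1.56 (SE 0.157), than MDAMB231 by -1.63 (SE 0.158) and than MDAMB468 by -1.24 (SE 0.156), with adjusted p of 7.6e-09, 5.3e-09 and 2.7e-07. MDAMB231 was above MDAMB468 by 0.40 (SE 0.154, adjusted p = 0.0292). HCC1806 differed from neither MDAMB231 (-0.08, SE 0.153) nor MDAMB468 (0.32, SE 0.153, adjusted p = 0.0765) beyond the spread. The summed length-scaled level, which was not tested, was 11.8 ± 0.626 CPM per kb in BT549 and 22.8 ± 5.77 in HCC1806. It was 23.0 ± 2.18 in MDAMB468 and 28.3 ± 2.58 in MDAMB231, so HCC1806 was not above MDAMB468 on that scale. In bulk RNA, fewer cells making a transcript and less of it per cell cannot be told apart.

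**Figure D3:**
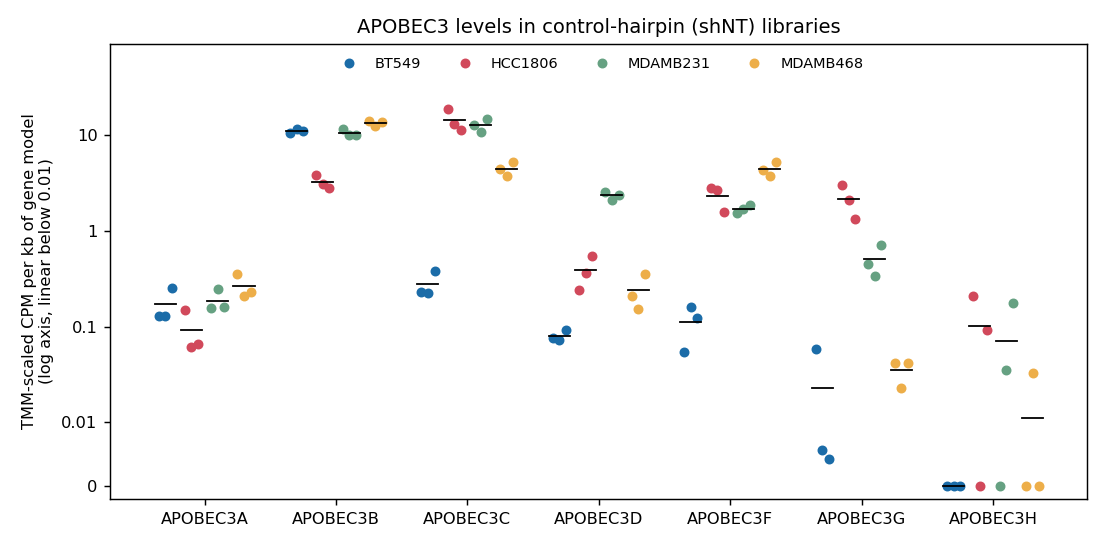
TMM-scaled CPM per kb of gene model (log axis, linear below 0.01) in each shNT library, with a bar at the mean of 3, by gene and line. APOBEC3B sits near 10 in BT549, MDAMB231 and MDAMB468 (means 11.1, 10.6 and 13.5) and lower in HCC1806 (3.27), while BT549 has the lowest mean for APOBEC3C, APOBEC3D, APOBEC3F and APOBEC3G.

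The 6 members that passed the filter on low counts were compared between lines in the shNT arm, and 27 of 36 gene and line pairs passed the threshold (edgeR adjusted p under 0.05). That is to be read against all 21352 genes tested, of which 63.5% were called between BT549 and HCC1806, 56.5% between BT549 and MDAMB231, and 61% between BT549 and MDAMB468. The remaining shares were 59% between HCC1806 and MDAMB231, 62.9% between HCC1806 and MDAMB468 and 61.8% between MDAMB231 and MDAMB468. Lines differed in most genes tested, so 27 of 36 pairs is not a property particular to this family.

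APOBEC3B, a nuclear enzyme with 2 deaminase domains, was high in 3 lines and lower in HCC1806. Its shNT libraries read 20.0, 22.3 and 20.8 CPM in BT549, 21.9, 19.2 and 19.3 in MDAMB231, and 26.8, 24.0 and 26.1 in MDAMB468, against 7.34, 5.89 and 5.37 in HCC1806. No HCC1806 library reached the lowest of another line. MDAMB231, the next line up, was 3.26-fold above HCC1806 (log2 1.71, SE 0.149, adjusted p = 9.2e-10). BT549 and MDAMB231 did not differ beyond their spread (log2 0.07, SE 0.141). MDAMB468 was above BT549 by 0.28 (SE 0.139) with an adjusted p of 0.0835, so that pair did not pass the threshold. It did pass with upper-quartile scaling, DESeq2, 10 counts in every library or shNT libraries alone, where BT549 was below MDAMB468 by log2 differences of -0.37 to -0.32. MDAMB231 was below MDAMB468 by a log2 difference of -0.35 (adjusted p = 0.0343). That call was lost without MDAMB231 shNT replicate 2 or 3 and without MDAMB468 shNT replicate 1 or 3, at -0.33 to -0.30.

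APOBEC3C, a cytoplasmic and nuclear enzyme with 1 deaminase domain, was highest in HCC1806, the line lowest in APOBEC3B. Its shNT libraries read 53.0, 37.2 and 32.0 CPM in HCC1806 and 36.5, 30.6 and 41.9 in MDAMB231, 2 groups that overlapped (log2 0.16, SE 0.187, adjusted p = 0.478). MDAMB468 had 12.5, 10.6 and 14.8 CPM, 2.87-fold below MDAMB231 (adjusted p = 3.4e-07). BT549 had 0.657, 0.632 and 1.07 CPM, 16.4-fold below MDAMB468 (adjusted p = 5.1e-13) and 52.7-fold below HCC1806. Little of this gene is shared with other members over 50 bases.

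APOBEC3D and APOBEC3F each have 2 deaminase domains and act in the cytoplasm against retroviruses. APOBEC3D was highest in MDAMB231, with 6.55, 5.36 and 6.06 CPM, 5.88-fold above the next line (adjusted p = 7.9e-08). HCC1806 followed with 0.616, 0.936 and 1.41 CPM, then MDAMB468 with 0.530, 0.394 and 0.902, and BT549 with 0.195, 0.185 and 0.233. The groups of HCC1806 and MDAMB468 overlapped, and their difference (log2 0.71, SE 0.305, adjusted p = 0.0462) passed the threshold narrowly. It was lost in 19 of the 24 fits that left out 1 library, at 0.37 without HCC1806 shNT replicate 3. Those fits also tested more genes (21980 to 22154, against 21352), which changes the adjustment whichever library was left out. BT549 was 3.03-fold below MDAMB468 (adjusted p = 0.000290).

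APOBEC3F was highest in MDAMB468, at 14.0, 12.3 and 17.0 CPM, 1.91-fold above HCC1806 (adjusted p = 0.00602). HCC1806 libraries read 9.02, 8.61 and 5.12 CPM and MDAMB231 libraries 4.98, 5.54 and 5.99, which overlapped (adjusted p = 0.197). BT549 read 0.177, 0.524 and 0.395 CPM, 15.0-fold below MDAMB231 (adjusted p = 2.0e-09). These 3 BT549 libraries rest on 10, 34 and 17 counts.

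APOBEC3G, the best studied restriction factor of the family and a target of the viral protein Vif, was highest in HCC1806. Its shNT libraries read 16.5, 11.4 and 7.20 CPM there, against 2.49, 1.85 and 3.91 in MDAMB231, 4.19-fold lower (adjusted p = 0.000845). MDAMB468 held 0.227, 0.124 and 0.230 CPM, 14.4-fold below MDAMB231 (adjusted p = 1.1e-05). BT549 held 0.319, 0.0308 and 0.0233 CPM, or 18, 2 and 1 counts, and did not differ from MDAMB468 beyond the spread (log2 -0.57, SE 0.799). Without BT549 shNT replicate 1 that difference was -2.67 with an adjusted p of 0.0275.

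APOBEC3A, an interferon-inducible enzyme with 1 deaminase domain, and APOBEC3H, the only member with its particular type of zinc domain, were low in every line. APOBEC3A averaged 0.626 ± 0.181 CPM in MDAMB468, 0.441 ± 0.119 in MDAMB231, 0.405 ± 0.173 in BT549 and 0.217 ± 0.117 in HCC1806, on 4 to 49 counts per library over both arms. Neighbours in that order overlapped and did not pass the threshold. HCC1806 was below MDAMB468 by a log2 difference of -1.60 (adjusted p = 0.00325) and below MDAMB231 by -1.15 (adjusted p = 0.0350). The second call was lost without HCC1806 shNT replicate 2 (-0.93) or 3 (-0.95) and without MDAMB231 shNT replicate 2 (-0.87). The reads of APOBEC3A amounted to 1.38% to 4.79% of those of APOBEC3B in every library, and its highest and lowest lines were those of APOBEC3B. Whether APOBEC3A counts come from reads shared with APOBEC3B was not tested. APOBEC3H had at most 10 counts in any library and 0 in 13 of 24, including all 6 of BT549, whose 390236244 counts allow a level of up to 0.00769 CPM (3 counts over the 6 libraries, counting error only). It was not tested.

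With ADAR1 lowered, no member passed the threshold in any line. The counts were 0 of 6 tested members in BT549, where 0.473% of all genes were called, 0 of 6 in HCC1806 (0.0468% of all genes), 0 of 6 in MDAMB231 (2.01%) and 0 of 6 in MDAMB468 (0.0375%). The mean of the 4 line effects gave 0 of 6 against 2.96% of all genes, and the joint test of a difference between the line effects 0 of 6 against 0.0234%. At such background shares, 0 of 6 does not set the family apart from other genes. At an unadjusted p under 0.05, edgeR gave 1 member each in BT549 and MDAMB468, 0 in HCC1806 and MDAMB231, and 0 in both tests over lines. DESeq2 called 0 in each of these tests among the members for which it gave an adjusted p, and gave the same numbers at an unadjusted p under 0.05. The range of shADAR1 libraries overlapped that of shNT libraries for each of the 7 members in each of the 4 lines. For APOBEC3H in BT549 that means 0 counts in all 6 libraries. The share of all genes whose ranges overlapped was not computed, so the overlap does not set the family apart. Between replicates of the same number, APOBEC3B was higher with shADAR1 in 3 of 3 pairs in HCC1806, and APOBEC3C and APOBEC3G were lower in 3 of 3. APOBEC3D and APOBEC3F were lower in 3 of 3 pairs in BT549, and APOBEC3F in MDAMB231. In MDAMB468, APOBEC3C and APOBEC3F were higher and APOBEC3D lower in 3 of 3. Same-numbered replicates of that line did not deviate together throughout and were not taken as pairs, so its matching by number is arbitrary. The share of all genes with 1 sign in 3 of 3 pairs was not computed, so these signs do not set the family apart. With the replicate number as a block, edgeR also called 0 of 6 members in each test, while the share of all genes called rose to 5.14% in BT549, 11.4% in MDAMB231, 2.1% in HCC1806 and 1.66% in MDAMB468. It was 13.2% in the mean and 4.69% in the joint test.

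**Figure D4:**
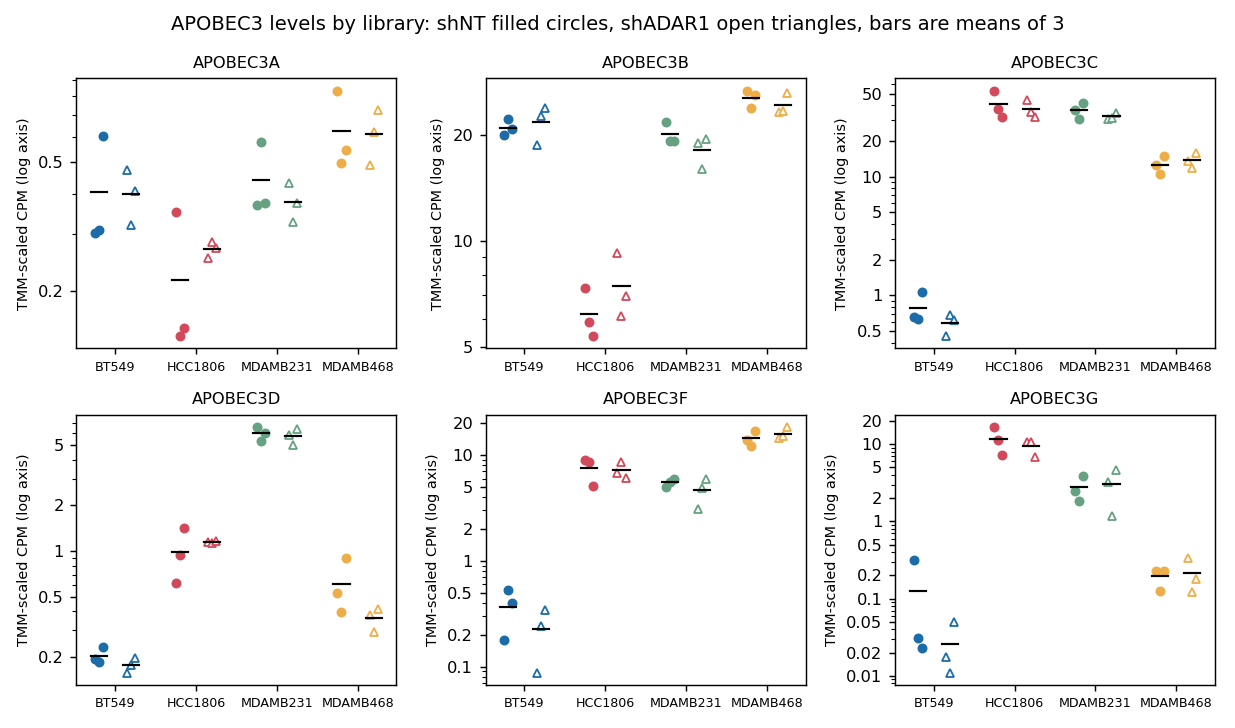
TMM-scaled CPM (log axes, scaled per panel) of the 6 tested members in each library, with filled circles for shNT, open triangles for shADAR1 and a bar at the mean of 3. The arms overlap in every panel and line, while single lines stand apart, such as HCC1806 for APOBEC3B (shNT mean 6.20).

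APOBEC3B gave the narrowest intervals of the members, and had 167 to 2061 counts in every library. In BT549 the shADAR1 libraries read 18.7, 22.7 and 23.9 CPM, around the shNT values, and the log2 change was 0.05 (95% interval -0.24 to 0.34). HCC1806 libraries read 9.22, 6.13 and 6.99 CPM with shADAR1, and the change of 0.27 (-0.03 to 0.58, unadjusted p = 0.0743 by edgeR's F test, adjusted p = 1) was 0.10 without shADAR1 replicate 1. MDAMB231 libraries read 19.0, 16.1 and 19.5 CPM (change -0.14, interval -0.44 to 0.15). MDAMB468 libraries read 23.3, 23.4 and 26.3 CPM (change -0.07, interval -0.36 to 0.22). The mean over lines was 0.03 (SE 0.071, 95% interval -0.12 to 0.17). In this fit, which has no replicate block, the interval leaves out a log2 change common to the lines above 0.17 or below -0.12. Summing the APOBEC3A and APOBEC3B counts, an alternative chosen after seeing the data, gave a mean of 0.03 as well.

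APOBEC3C read 44.0, 35.4 and 31.6 CPM with shADAR1 in HCC1806, 30.9, 31.5 and 34.6 in MDAMB231, 13.7, 11.9 and 15.8 in MDAMB468 and 0.456, 0.684 and 0.622 in BT549. Its log2 changes were -0.14 (interval -0.52 to 0.25), -0.17 (-0.55 to 0.22), 0.12 (-0.27 to 0.52) and -0.37 (-0.93 to 0.20) in that order. Averaged over lines it was -0.14 (SE 0.106, adjusted p = 0.685). In all 4 lines the interval included 0, and the BT549 value was -0.11 without shNT replicate 3.

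APOBEC3D had its only sizeable value in MDAMB468. The counts there were 14, 19 and 51 with shNT and 10, 17 and 28 with shADAR1, or 0.530, 0.394 and 0.902 CPM against 0.378, 0.292 and 0.415. The third shNT library stood above the rest, and 1 shADAR1 library lay within the shNT range. The log2 change was -0.77 (SE 0.327), with an unadjusted p of 0.0265 by edgeR's F test and an adjusted p of 1, and it was -0.33 without shNT replicate 3. In MDAMB231, where the gene was highest, shADAR1 libraries read 5.80, 5.04 and 6.42 CPM, a change of -0.05 (interval -0.61 to 0.50). Over all lines the mean was -0.21 (SE 0.158, adjusted p = 0.674).

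APOBEC3F read 14.4, 15.0 and 18.3 CPM with shADAR1 in MDAMB468, a log2 change of 0.14 (interval -0.43 to 0.71). HCC1806 libraries read 6.81, 8.60 and 6.11 CPM, all within the shNT range (change -0.07, interval -0.66 to 0.51). MDAMB231 libraries read 3.11, 4.88 and 5.95 CPM (change -0.24, interval -0.84 to 0.37), the first of them on 65 counts. In BT549 counts of 5, 22 and 21 stood against 10, 34 and 17, a change of -0.69 with an interval of -1.56 to 0.19. Leaving out 1 library moved it to between -1.04 (without shADAR1 replicate 3) and -0.28 (without shNT replicate 2). The mean over lines was -0.21 (SE 0.162, adjusted p = 0.672).

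APOBEC3G gave the largest fitted change and the fewest counts behind it. BT549 had 18, 2 and 1 counts with shNT and 1, 1 and 3 with shADAR1, so the first shNT library held most of the reads of its group. The fitted log2 change of -2.28 (SE 1.09, unadjusted p = 0.0376 by edgeR's F test, adjusted p = 0.721) became -0.18 without that library. The mean over lines moved in the same way, from -0.62 (SE 0.379, adjusted p = 0.523) to -0.09. HCC1806 read 10.8, 10.7 and 6.84 CPM with shADAR1, a change of -0.31 (interval -1.24 to 0.63). In both arms of HCC1806 the third replicate was lowest, and in both arms of MDAMB231 the second was lowest and the third highest. MDAMB231 read 3.26, 1.17 and 4.69 CPM with shADAR1, a change of 0.12 (SE 0.487).

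For APOBEC3A the log2 change was -0.0044 in BT549, 0.0038 in MDAMB468, 0.41 in HCC1806 and -0.28 in MDAMB231, with intervals that reached from -1.18 in MDAMB231 to 1.36 in HCC1806. Its HCC1806 counts were 8, 7 and 8 with shNT and 11, 14 and 24 with shADAR1, in libraries of unequal depth. The MDAMB231 value was -0.0034 without shNT replicate 2. The mean over lines was 0.03 (SE 0.213). Over the 24 tests of a member in a line, 15 estimates were below 0 and 9 above. Of all genes tested, 49.7% (MDAMB231) to 52.7% (BT549) were above 0 per line. Members are not replicates of one another, so their signs are only a description. The median of the 6 members was -0.28 in BT549 and -0.16 in MDAMB231, where that of all genes tested was 0.014 and 0. It was 0.05 in HCC1806 and 0.0047 in MDAMB468, beside 0.0039 and 0.01 over all genes. In BT549 the 5 members with estimates below 0 had at most 62 counts in any library, while APOBEC3B, at 0.05, had 894 to 2061.

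**Figure D5:**
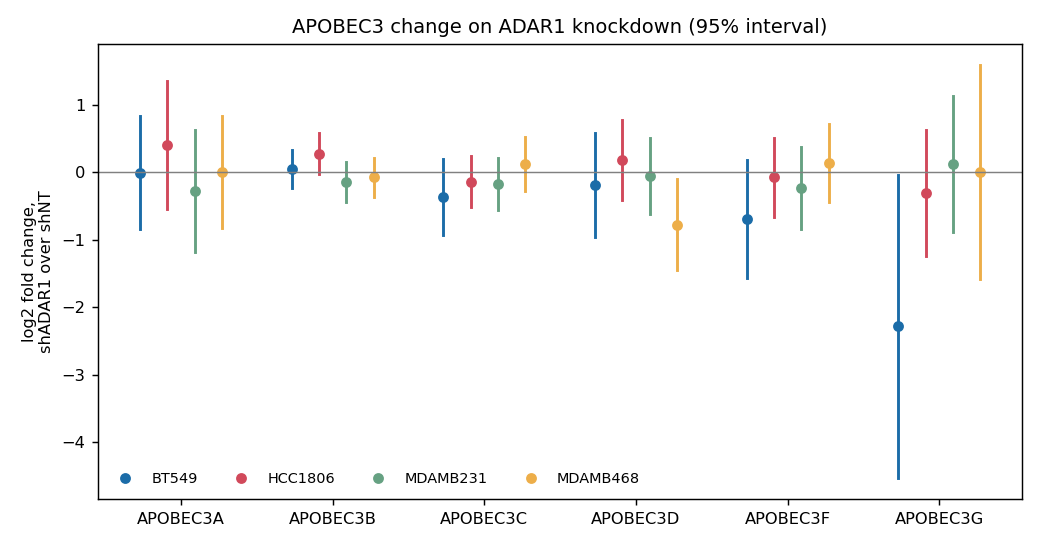
Log2 fold change of shADAR1 over shNT with its 95% interval for the 6 tested members in each line. The APOBEC3B intervals are the narrowest (-0.24 to 0.34 in BT549), and 2 intervals exclude 0 before adjustment for the genes tested, APOBEC3G in BT549 and APOBEC3D in MDAMB468.

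The family as a sum, a measure chosen after seeing the data, changed little. With the counts of the 7 genes added, the log2 change was 0.02 in BT549 and 0.03 in MDAMB468, against -0.11 in HCC1806 and -0.15 in MDAMB231. The mean over lines was -0.05 (SE 0.077, interval -0.21 to 0.11, adjusted p = 0.916). Its make-up was not tested between arms. APOBEC3B held 95.7% of the length-scaled level with shADAR1 in BT549 (94.3% with shNT), 55.7% in MDAMB468 (58.9%) and 37.6% in MDAMB231 (37.6%). In HCC1806 it held 18.1 ± 2.41% with shADAR1 and 14.6 ± 1.31% with shNT (SD, n = 3 each).

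The genes around the cluster were read for comparison. CBX6 and CBX7, which encode Polycomb proteins that bind methylated histone H3, lie within 100 kb on either side. CBX6 rose in MDAMB231, from 179 ± 28.2 to 294 ± 52.4 CPM (log2 0.71, SE 0.137, adjusted p = 0.00371), and in the mean over lines (0.35, SE 0.068, adjusted p = 0.00293). The MDAMB231 call of CBX6 was lost when the 6 libraries of that line were fitted alone (0.71, adjusted p = 0.0611). CBX7 did not pass the threshold in any line or in the mean (0.12, SE 0.064, adjusted p = 0.487). The third neighbour, ENSG00000235209, had 0 counts in 3 of the 8 groups and was not tested.

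Among relatives of the family, APOBEC1, an editor of apolipoprotein B messenger RNA, had 0 counts in all libraries. APOBEC2 and APOBEC4 were tested and neither passed the threshold in any comparison of arms. Of 15 genes that remove uracil from DNA or handle abasic sites, 1 rose and 0 fell in MDAMB231 and in the mean over lines, and 0 passed in the other 3 lines. That gene was TDG, which cuts thymine or uracil out of mismatches with guanine: it went from 34.4 ± 5.73 to 51.0 ± 6.11 CPM in MDAMB231 (log2 0.56, SE 0.125, adjusted p = 0.0154) and by 0.28 in the mean (SE 0.062, adjusted p = 0.00887). Leaving out 1 MDAMB231 library in turn ended the call in that line in 4 of 6 cases, with changes of 0.46 to 0.70, and fitting the 6 libraries of that line alone also ended it (0.56, adjusted p = 0.122). The median of the list was -0.01 in MDAMB231 and 0.02 in the mean, against 0 and 0.02 over all genes. Among all genes tested, 2.01% were called in MDAMB231, 2.96% in the mean and 0.0375% to 0.473% in the other lines. UNG, the main uracil-DNA glycosylase, had a mean change of -0.18 (SE 0.059, adjusted p = 0.117).

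Known regulators of APOBEC3B transcription, 15 genes of the NF-kB family and of the DREAM complex with its partners, gave 0 calls in each line, in the mean and in the joint test, with a median of 0.01 in the mean. Of 20 interferon signalling and response genes 0 passed in any of these tests, and their median in the mean over lines was -0.02. Among all genes tested, 0.0375% to 2.01% were called per line, 2.96% in the mean and 0.0234% in the joint test. At such shares, 0 of 15 or 0 of 20 does not set a list apart from other genes. Of 13 other restriction factors of retroviruses 1 passed, in MDAMB231 and in the mean. This was MX2, a blocker of nuclear import of viral DNA that was not among the 20 interferon genes listed. In MDAMB231 it read 0.330 ± 0.223 CPM with shNT and 1.06 ± 0.421 with shADAR1 (log2 1.69, SE 0.363, adjusted p = 0.0102). The call in MDAMB231 was lost without shNT replicate 2 (1.06) and without shADAR1 replicate 3 (1.30), and with the 6 libraries of that line alone (1.70, adjusted p = 0.396). The mean change of MX2 was 0.59 (SE 0.137, adjusted p = 0.0141).

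Genes whose log2 level ran most like that of each member over the 24 libraries were listed by Pearson correlation, as a description. The 24 libraries fall into 4 lines, and correlations within a line were not computed. APOBEC3B ran with R3HDM2 (0.979), ZNF570 (0.978) and ABCA3 (0.977). APOBEC3C ran with TOX (0.990), ZDBF2 (0.989) and LGALS3BP (0.989), and APOBEC3F with PPP1R3B (0.982), DSC2 (0.980) and HID1 (0.978). The genes closest to APOBEC3D were RIGI, a sensor of viral RNA (0.976), ACSL5 (0.973) and MAPK14 (0.972). Those closest to APOBEC3G were EREG (0.962), MAST4 (0.962) and LYN (0.960), while APOBEC3A reached only 0.854 with CEP63, 0.845 with AGO4 and 0.839 with STIL. No member appeared among the 3 closest genes of another.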

How the data were processed

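RNA from 24 libraries (4 lines, 2 arms, 3 biological replicates each) was analysed from the deposited whole-number read counts per gene, per the file headers. The deposited CPM values equal each count's share of the library total and the deposited RPKM values are CPM per kilobase, as checked on the files; neither was tested. Per the submitters' processing notes, bcl2fastq, STAR, Subread with featureCounts and edgeR were used; the build, strand setting and handling of reads that fit several genes are not given in the sources used here. Members were found by symbol (33972 of 37416 gene identifiers matched a name table). The members and gene lists were chosen with earlier results of these data known. A gene in the list of APOBEC relatives is not reported here.

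The filterByExpr filter over the 8 groups left 21352 genes, 6 members among them, and libraries were scaled by TMM. edgeR 4.0.16 in R 4.3.3 fitted 1 model with 8 groups (quasi-likelihood F test, 2-sided, 16 residual degrees of freedom). Contrasts were shADAR1 against shNT in each line, their mean, a joint test of their difference, and pairs of lines within shNT. Benjamini-Hochberg adjustment ran over all genes tested within each comparison, with a threshold of 0.05. The summed family and summed APOBEC3A and APOBEC3B, both chosen after seeing the data, replaced their members' rows in fits of their own. Named besides the members were ADAR, called genes of each list, genes within 100 kb of the cluster and, for each member, the 3 genes with the highest Pearson correlation.

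The script was tested on simulated counts. Alternatives were other scalings, DESeq2 1.42.0, other filters, a replicate block, fewer groups and leaving out each library. Same-numbered replicates of the 2 arms deviated together in BT549 (correlations 0.139 to 0.250), HCC1806 (0.242 to 0.443) and MDAMB231 (0.149 to 0.348). The numbers were read as pairs there, a pairing that comes from the data. The main fit does not use this pairing. Changes, standard errors, intervals and p-values on knockdown come from the fit without the block unless another fit is named. Precision is limited by counts: APOBEC3H had at most 10 per library and APOBEC3A at most 49.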

Additional observations from a re-analysis of the deposited data

How the results depend on the processing

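The count of members called on knockdown stayed at 0 in each line, in the mean and in the joint test under every alternative run. The lowest adjusted p of any member over the alternatives was 0.129, for the mean effect of APOBEC3G with the replicate block. The block called 0 members, with 2 at an unadjusted p under 0.05 in BT549, 0 in MDAMB231, 1 each in HCC1806 and MDAMB468, 2 in the mean and 1 in the joint test, and changed no call on a member. In MDAMB468 the same-numbered replicates were not taken as pairs (lowest correlation 0.0651), though the block covered that line too. Requiring 10 counts in every library left APOBEC3B and APOBEC3C tested and 10 of 12 pairs of lines called instead of 27 of 36, fewer because fewer genes were tested; 69.3% to 74.5% of all 11794 genes were then called between lines. Leaving out 1 library gave 25 to 29 pairs, with 21980 to 22154 genes tested because the filter then kept more genes. In 22 of these 24 fits, and without a filter, APOBEC3H was tested as well; it was not called on knockdown and was called between some lines.

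Values near 0 changed sign, all without a call. APOBEC3A in BT549 was 0.0086 without a filter and 0.036 with the block. APOBEC3A in MDAMB468 was -0.0079 with RLE and -0.014 with upper-quartile scaling. APOBEC3G was -0.0032 in MDAMB231 with the block, and in MDAMB468 -0.010 with upper-quartile scaling and -0.0099 with the block. APOBEC3B in BT549 against MDAMB231 was -0.012 with upper-quartile scaling. The cause was not tested.

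Leaving out 1 library also changed signs. APOBEC3A ranged from -0.17 to 0.39 in BT549, -0.15 to 0.24 in MDAMB468 and -0.021 to 0.14 in the mean. APOBEC3B ranged from -0.018 to 0.15 in BT549 and -0.015 to 0.061 in the mean, and APOBEC3C from -0.28 to 0.10 in HCC1806. APOBEC3D ranged from -0.028 to 0.53 in HCC1806 and -0.14 to 0.034 in MDAMB231, and APOBEC3F from -0.30 to 0.063 in HCC1806. APOBEC3G ranged from -0.56 to 0.018 in HCC1806, -0.39 to 0.53 in MDAMB231 and -0.34 to 0.30 in MDAMB468. Between shNT lines, APOBEC3A ranged from -0.56 to 0.10 (BT549 against MDAMB231) and APOBEC3C from -0.067 to 0.31 (HCC1806 against MDAMB231).

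Some calls between lines moved. APOBEC3B in BT549 against MDAMB468 gained a call with upper-quartile scaling (-0.36), DESeq2 (-0.32), 10 counts in every library (-0.37) and shNT libraries alone (-0.33). APOBEC3D in HCC1806 against MDAMB468 lost its call with RLE (0.68), upper-quartile scaling (0.65), DESeq2 (0.69), no filter (0.73) and shNT libraries alone (0.67). APOBEC3A in HCC1806 against MDAMB231 lost its call with no filter (-1.13) and shNT libraries alone (-1.13), and APOBEC3B in MDAMB231 against MDAMB468 with no filter (-0.35). Leaving out BT549 shNT replicate 1 or HCC1806 shNT replicate 1 gave APOBEC3A a call between those lines (1.14 and 1.40). With the 6 libraries of the line alone, TDG (0.56), MX2 (1.70) and CBX6 (0.71) lost their calls in MDAMB231 and ADAR its call in HCC1806 (-1.60).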
